A study of Mus musculus with 9 samples.

Results

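The comparison described here is Nr4a1 overexpression against untransfected MIN6 cells. MIN6 is an insulin-producing line from a mouse insulinoma, used as a model of the pancreatic beta cell. Of 9 libraries of total RNA in the study, 6 enter it: 3 labelled as untransfected control and 3 labelled as overexpressing Nr4a1, all marked as batch 1. The other 3 libraries, from overexpressing cells that were also given the catechin EGCG, were left out. The labels give no passage, transfection method, promoter, vector or time, and no group is labelled as given an empty vector, so transfection and the receptor cannot be told apart. Separate cultures are not stated for the 3 libraries of a group, and p-values then measure only the spread between these libraries. Of 52408 genes in the table, the 11672 with at least 1 TPM in at least 3 of the 6 libraries were tested.

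NR4A1, also called Nur77, is an orphan nuclear receptor and an immediate early gene product. It binds as a monomer to a short DNA element, the NBRE, and is known in beta cells for effects on proliferation, survival and metabolism. The gene groups that moved most here belong to the response to low oxygen. In that response the prolyl hydroxylases stop marking the HIF alpha subunits for destruction, and HIF then raises glucose uptake, glycolysis, lactate export and mitophagy receptors while restraining entry of pyruvate into mitochondria.

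Nr4a1 itself was at 0.63, 0.78 and 0.76 TPM in control and 128, 122.5 and 165 TPM with overexpression. The groups were far apart, 191.7-fold by their means (log2 fold change 6.33 ± 0.11 SE, limma adjusted p = 1.24e-06), and the exact permutation test gave p = 0.1, the smallest that 3 against 3 libraries allow. The gain sat in the annotated transcript Nr4a1-201, at 127, 122 and 165 TPM with overexpression and at most 0.72 TPM in control. Whether these reads came from the cell's own gene or from an introduced copy cannot be read from this table. The related receptors Nr4a2 and Nr4a3 had group means under 1 TPM in both groups and were not tested.

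Gene levels are TPM, a unit corrected for transcript length and for the library's total. A change is the difference between the group means of log2(TPM + 1), a scale that understates the change of low genes. A gene was called with limma at a Benjamini-Hochberg adjusted p under 0.05 over all 11672 genes. By that rule 58.6% of tested genes were called, 38.1% higher and 20.5% lower, and for 65.5% the 2 groups did not overlap. The median change of all tested genes was 0.10. Most changes were small: 2.77% of genes were called and at least 2-fold higher, and 2.05% were called and at least 2-fold lower. With median-ratio scaling, which brought the median change to 0.00, 3405 genes were higher and 3342 lower in place of 4451 and 2390. List medians below are therefore to be read against 0.10 and not against 0. Counts of called list members are likewise to be read against the 38.1% higher and 20.5% lower of all tested genes. For genes with at least 5 TPM in 3 libraries the median change was 0.16, so 0.10 is a low reference for lists of abundant genes.

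**Figure D1:**
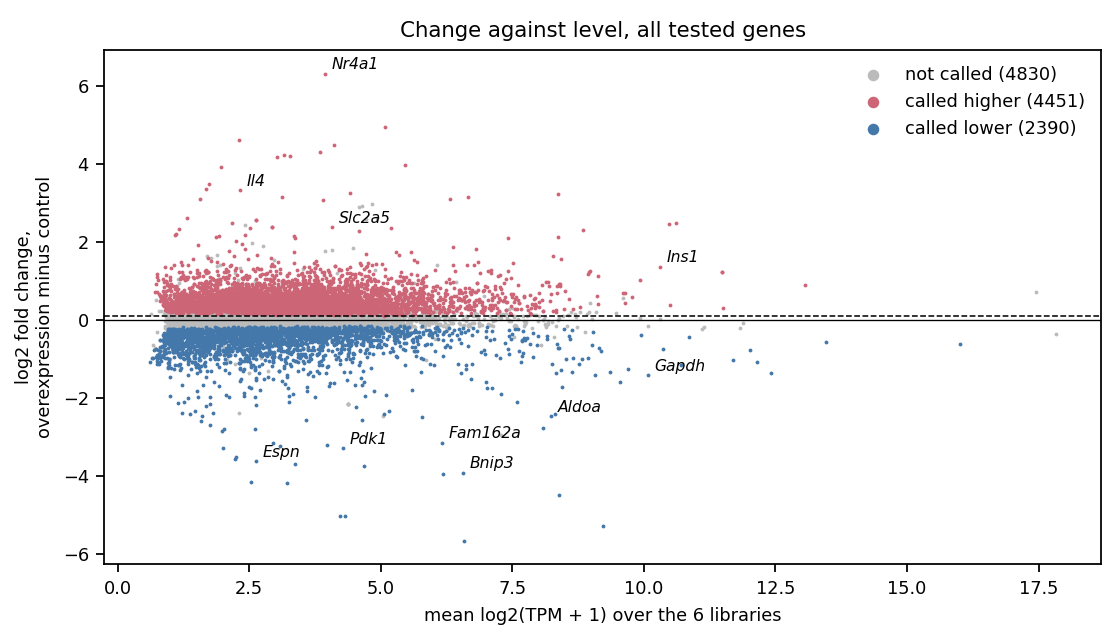
Each point is a tested gene, with its mean log2(TPM + 1) over the 6 libraries on the x axis and its log2 fold change (overexpression minus control) on the y axis; colours give the call and the dashed line the median of all tested genes, 0.10. Nr4a1 lies at the top with 6.33, and Bnip3, Espn and Pdk1 lie among the lowest named genes at -3.91, -3.62 and -3.27.

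The depth of the libraries is unknown, since TPM keeps no record of it. Libraries of the same group correlated on log2(TPM + 1) at 0.977 to 0.979 in control and 0.988 to 0.991 with overexpression, and between groups at 0.922 to 0.943. Control replicate 3 was nearer to the overexpression libraries (0.939 to 0.943) than the other controls were (0.922 to 0.928). Some library measures moved with the groups. Chemoreceptor genes (olfactory, vomeronasal and trace amine receptors) summed to 66.5 to 131 TPM in the controls and 5.75 to 6.82 TPM with overexpression. Genes above 0 TPM numbered 31124 to 31931 and 23087 to 23888. Retained-intron transcripts held 6.72% to 7.38% of nuclear protein-coding TPM in control and 6.29% to 6.39% with overexpression, and small RNA genes held 43.5% to 45.1% and 49.4% to 50.04% of all TPM. Among the controls, replicate 3 lay nearest to the overexpression values in each of these measures. The part of these measures in the gene results was not tested. Subtracting the mean chemoreceptor level from every gene gave 6902 called genes against 6841. That mean was 0.0335 to 0.0661 TPM in control and 0.0029 to 0.0034 TPM with overexpression, small beside the 1 TPM minimum. The near-equal count therefore says little about the part of such a background. The 8 called genes that fell by more than Bnip3 all carry predicted-gene names and were not ranked. Of the 323 called genes at least 2-fold higher, 237 were protein coding and 32 were small nucleolar RNAs. Beta cell markers such as Ins1, Iapp, Pdx1 and Abcc8 were present in both groups, while the glucose transporter Slc2a2 was at 0.49 to 1.42 TPM over the 6 libraries and was not tested. None of 10 fibroblast and 11 leukocyte markers reached 1 TPM in any library. Of 8 endothelium markers, only Plvap was tested, and it was called lower. Of 10 neuron and glia markers, 6 were tested, with 2 called higher and 2 lower. Those 10 summed to 172 to 201 TPM in control and 172 to 191 TPM with overexpression. The 16 acinar and duct markers summed to 39.1 to 43.5 TPM in control and 83.9 to 90.3 TPM with overexpression. Of these, 13 were under 1 TPM in every library, Spp1 was called higher, and Cela1 and Krt7 were not called.

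Promoter sequences, from 250 bases before to 50 after the annotated start, are shown for 5 genes of the hypoxia, ER chaperone and mitosis lists, each with a motif known for its list. They come from RefSeq on GRCm38.p6, an older build than that of the expression table. Bnip3, a mitophagy receptor at chr7:138909457-138909756 on the minus strand, and Ankrd37, a HIF target at chr8:45999801-46000100 on the minus strand, were among the genes with the deepest falls. Capitals mark every ACGTG or GCGTG, the hypoxia response core, on either strand (CACGT and CACGC on the other strand; the matches can overlap).
Bnip3: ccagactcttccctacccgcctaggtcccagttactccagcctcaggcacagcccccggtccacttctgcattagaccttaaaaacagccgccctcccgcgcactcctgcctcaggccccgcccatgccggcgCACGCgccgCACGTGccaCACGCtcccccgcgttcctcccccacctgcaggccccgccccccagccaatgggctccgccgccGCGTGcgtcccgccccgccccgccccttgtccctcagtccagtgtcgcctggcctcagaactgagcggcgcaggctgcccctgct
Ankrd37: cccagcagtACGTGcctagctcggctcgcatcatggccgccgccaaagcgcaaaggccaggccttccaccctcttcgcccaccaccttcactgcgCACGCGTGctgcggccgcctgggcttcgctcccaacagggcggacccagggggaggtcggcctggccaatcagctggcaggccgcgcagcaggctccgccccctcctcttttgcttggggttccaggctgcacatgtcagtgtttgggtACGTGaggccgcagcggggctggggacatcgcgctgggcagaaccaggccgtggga
The chaperone gene Hspa5 at chr2:34771840-34772139 and the folding factor gene Creld2 at chr15:88819396-88819695, both on the plus strand, rose. Capitals mark the ER stress element on either strand, which begins with a CCAAT box.
Hspa5: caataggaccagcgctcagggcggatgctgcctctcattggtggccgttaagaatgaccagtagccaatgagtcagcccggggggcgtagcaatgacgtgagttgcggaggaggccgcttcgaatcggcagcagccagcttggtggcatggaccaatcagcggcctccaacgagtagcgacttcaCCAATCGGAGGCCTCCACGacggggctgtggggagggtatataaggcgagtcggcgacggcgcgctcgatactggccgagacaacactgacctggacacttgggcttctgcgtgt
Creld2: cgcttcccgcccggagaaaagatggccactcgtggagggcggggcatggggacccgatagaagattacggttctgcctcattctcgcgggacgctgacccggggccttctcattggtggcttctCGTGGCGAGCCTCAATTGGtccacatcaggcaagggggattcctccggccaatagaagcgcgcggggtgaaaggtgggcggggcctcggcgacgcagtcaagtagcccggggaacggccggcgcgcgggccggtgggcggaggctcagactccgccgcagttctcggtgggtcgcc
The mitotic gene Cdc20 at chr4:118437294-118437593 on the minus strand also rose. Capitals mark TTTGAA, the core of the cell cycle genes homology region, on either strand.
Cdc20: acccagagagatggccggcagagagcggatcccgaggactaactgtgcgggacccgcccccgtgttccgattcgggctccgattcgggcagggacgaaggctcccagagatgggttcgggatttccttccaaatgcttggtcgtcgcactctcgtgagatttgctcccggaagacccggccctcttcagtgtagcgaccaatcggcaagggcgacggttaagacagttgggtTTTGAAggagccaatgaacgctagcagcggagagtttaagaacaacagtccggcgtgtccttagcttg

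Motif shares were counted only where the promoter table covered at least 80% of a list. Of 10620 tested protein-coding symbols, 8577 (80.8%) matched. ACGTG lay in 19 of 24 promoters of the hypoxia list (79.2%) and in 14 of 25 of the glycolysis list (56.0%), against 30.5% of tested genes and 21.8% of all 27020 genes in the promoter table. The wider core marked in the sequences above, ACGTG or GCGTG, is common. It lay in 70.2% of tested genes and 46.7% of all genes in the promoter table. The ER stress element lay in 8 of 22 promoters of ER chaperone genes (36.4%), against 0.175% of tested genes. TTTGAA lay in 27 of 40 promoters of mitosis genes (67.5%), against 14% of tested genes. The hypoxia list was made of known HIF targets, so a high share of ACGTG there follows from its making. The other motifs were likewise picked as known for their lists. These list shares count all tested members, called or not, and say nothing about which genes changed here. The NBRE letters AAAGGTCA lay in the promoters of 82 tested genes (0.956%), of which 29 were called higher and 16 lower with a median change of 0.09. The shares called among tested protein-coding genes were 39.4% higher and 19.9% lower. For the sets of genes called at least 2-fold higher or lower, 79.3% and 74.3% matched, so the check of those sets is void. These are matches of letters in a short window and not binding sites.

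Hypoxia-inducible genes fell. Of 29 tested members, 25 were called lower and 2 higher, against 20.5% lower among all tested genes, and their median change was -1.61. Bnip3, whose product sends mitochondria to autophagy, was at 361, 364 and 376 TPM in control and 30.6, 30.45 and 13.8 TPM with overexpression (log2 fold change -3.91 ± 0.28 SE, limma adjusted p = 5.15e-05). All 3 overexpression libraries lay below all controls, and the third was the lowest. In bulk RNA, fewer cells with a transcript and less of it per cell cannot be told apart. Ankrd37 was at 24.5, 24.7 and 25.6 TPM in control and 2.19, 1.7 and 1.47 TPM with overexpression. Ak4, a mitochondrial adenylate kinase, was at 15.5, 15.3 and 14.65 TPM in control and 0.42, 0.67 and 0.11 TPM with overexpression. Mgarp, which encodes a mitochondrial protein, fell from 11.5 to 0.297 TPM. In these 3 genes no overexpression library exceeded 2.19 TPM, and no groups overlapped. Pdk1, the kinase that switches off pyruvate dehydrogenase, was at 56.45, 61.4 and 60.04 TPM in control and 6.07, 5.94 and 3.93 TPM with overexpression (log2 fold change -3.27 ± 0.14 SE, limma adjusted p = 9.59e-06). Fam162a, a proapoptotic HIF target, fell from 212 to 23.3 TPM, and P4ha2, a collagen prolyl hydroxylase subunit, from 9.73 to 0.547 TPM. Ndrg1, a stress-responsive gene, fell from 59.8 to 9.3 TPM. The 2 members called in the other direction were the lysyl oxidase Loxl2, at 20.9, 20.65 and 20.7 TPM in control and 34.5, 36.9 and 36.8 TPM with overexpression, and Pfkfb4, which makes the glycolytic activator fructose-2,6-bisphosphate, from 1.29 to 1.95 TPM.

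The oxygen sensors did not move as a block. The HIF subunit gene Hif1a was at 16.6, 17.85 and 15.2 TPM in control and 16.4, 16.2 and 15.7 TPM with overexpression (log2 fold change -0.04), with overlapping groups and no call. With quantile normalization it was called lower (-0.19). Its partner Arnt was called lower (4.77 to 4.08 TPM), but not without control replicate 1 or 2 or overexpression replicate 2 or 3 (limma adjusted p = 0.114 to 0.148). Of the prolyl hydroxylase genes, Egln1, itself a HIF target, was at 30.3, 30.1 and 27.7 TPM in control and 9.29, 9.03 and 8.58 TPM with overexpression (log2 fold change -1.61 ± 0.06 SE, limma adjusted p = 6.97e-06), while Egln2 rose from 8.53 to 10.97 TPM. Hif1an, which encodes the asparaginyl hydroxylase that blocks HIF's activation domain, rose from 5.02 to 7.37 TPM. Vhl, the ubiquitin ligase subunit that recognises hydroxylated HIF, was at 6.84 to 7.37 TPM by group means and was not called. Cited2, a HIF-inducible inhibitor of HIF, fell from 19.5 to 8.75 TPM. Epas1 and Egln3 stayed under 0.1 TPM in every library and were not tested.

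Glycolysis genes fell from glucose entry to lactate export. Of 26 tested members, 17 were called lower and 5 higher, with a median change of -1.498. At the entry, the glucose transporter Slc2a1 was at 26.1, 28.3 and 29.9 TPM in control and 4.53, 4.35 and 3.2 TPM with overexpression (log2 fold change -2.54 ± 0.11 SE, limma adjusted p = 1.17e-05). The aldolase genes Aldoa and Aldoc fell from 707 to 130.1 TPM and 15.2 to 1.34 TPM, and triose phosphate isomerase Tpi1 from 80.5 to 15.1 TPM. Gapdh, the most abundant member, was at 1786, 1888 and 1604 TPM in control and 718, 654 and 615 TPM with overexpression (log2 fold change -1.41). At the exit, the lactate exporter Slc16a3 was at 83.02, 85.1 and 114 TPM in control and 8.94, 10.8 and 2.07 TPM with overexpression (log2 fold change -3.73 ± 0.47 SE, limma adjusted p = 5.31e-04). The third overexpression library held the smallest amount, and none overlapped the controls. Lactate dehydrogenase A, Ldha, was at 385, 388 and 413 TPM in control and 106.5, 108 and 67.6 TPM with overexpression.

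Glycolysis members that rose included isoforms and regulators. Ldhb, the heart-type lactate dehydrogenase, was at 2.62, 1.01 and 1.45 TPM in control and 9.8, 9.13 and 8.58 TPM with overexpression (log2 fold change 1.96 ± 0.20 SE, limma adjusted p = 2.00e-04). Eno3, an enolase, was at 4.16, 5.83 and 5.84 TPM in control and 10.5, 10.85 and 12.9 TPM with overexpression. Pfkfb2, an isoform of the enzyme that sets fructose-2,6-bisphosphate, rose from 9.897 to 14.8 TPM; Pfkfb4 was given above. Even after these changes Ldha stood above Ldhb and Gapdh above every other member, in TPM, which is per length. The fructose transporter Slc2a5, outside the list, was at 7.15, 5.57 and 6.53 TPM in control and 37.9, 37.4 and 37.4 TPM with overexpression (log2 fold change 2.38 ± 0.08 SE, limma adjusted p = 6.26e-06), the third-highest rise among ranked genes. The abundant cytokine-like tautomerase Mif fell from 731 to 139 TPM and the fatty acid carrier Fabp5 from 76.4 to 13.6 TPM, both among the 20 deepest falls.

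Within the overexpression group, the 3 libraries were not alike for these genes. The third library had the most Nr4a1 (165 against 128 and 122.5 TPM) and the lowest level of 34 of the 41 genes called lower on the hypoxia or glycolysis list. The exceptions were Vegfa, Kdm3a, Rora, Kdm4b, Cited2, Aldoc and Tpi1. Among all 2390 genes called lower, the third library was lowest for 37.3%. For genes called higher the same library was lowest for 31.1%. Its median difference from the mean of the other 2 libraries was -0.21 on the log2 scale for the 25 hypoxia genes and -0.22 for the 17 glycolysis genes, and -0.02 for all genes called lower. Other lists had other orders. The first overexpression library, which did not have the most Nr4a1, was the highest for 21 of 21 ER chaperone genes called higher, 28 of 34 translocon, glycosylation and coat genes and 17 of 20 heat shock genes, against 2192 of all 4451 genes called higher. These orders were noticed in the data and each rests on 1 library.

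**Figure D2:**
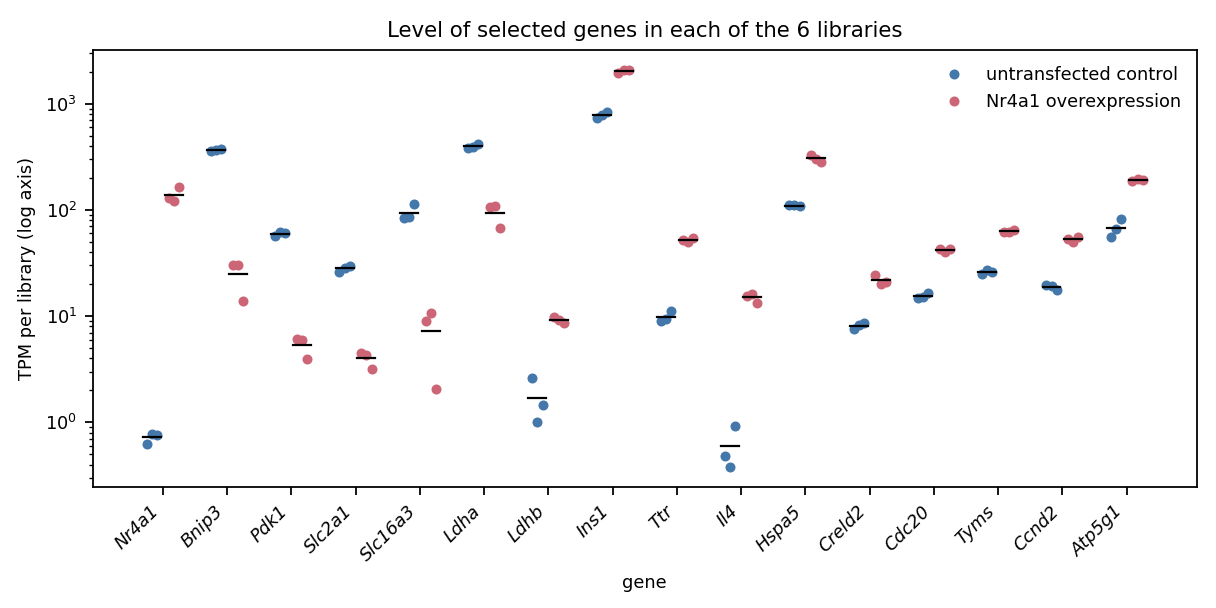
TPM of 16 genes in each of the 6 libraries on a log axis, with blue points for untransfected control, red points for Nr4a1 overexpression and a bar at each group mean. In none of the 16 genes do the groups overlap, and for Bnip3, Pdk1, Slc2a1, Slc16a3 and Ldha the third overexpression library is the lowest point.

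Of 11 tested glycogen genes, 6 were called lower and 2 higher (median -0.35). Glycogen synthase Gys1 fell from 21.6 to 5.48 TPM, and Pgm1, which interconverts the glucose phosphates, from 65.99 to 16.7 TPM. Ugp2, which makes the UDP-glucose that the synthase uses, fell from 12.85 to 9.85 TPM. Glycogenin Gyg, the primer of the granule, rose from 5.32 to 9.1 TPM. The phosphorylase Pygb was called higher (12.45 to 15.7 TPM), but not with median-ratio or quantile scaling (limma adjusted p = 0.0636 and 0.101).

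Nuclear genes for mitochondrial fuel use went in part the other way, by small steps. Of 42 genes of pyruvate handling, the TCA cycle and shuttles, 24 were called higher and 9 lower (median 0.27). The shares of all tested genes were 38.1% and 20.5%. With quantile normalization the counts of this list were 17 and 12 (median 0.10), and with median-ratio scaling 19 and 13. Mdh1, the cytosolic malate dehydrogenase of the malate-aspartate shuttle, was at 19.8, 17.3 and 25.1 TPM in control and 56.1, 54.1 and 46.75 TPM with overexpression (log2 fold change 1.31 ± 0.13 SE, limma adjusted p = 2.09e-04). The glycerol phosphate dehydrogenase Gpd1 rose from 3.26 to 7.03 TPM and the dicarboxylate carrier Slc25a10 from 6.26 to 15.1 TPM. The 9 that fell included all 3 tested pyruvate dehydrogenase kinases, with Pdk2 from 8.103 to 5.07 TPM and Pdk3 from 15.7 to 10.7 TPM. The citrate exporter Slc25a1 fell from 30.2 to 11.6 TPM and malic enzyme Me1 from 28.9 to 15.6 TPM. Sdha, the flavoprotein of succinate dehydrogenase, fell from 60.9 to 41.8 TPM while the other 3 subunit genes of that enzyme were called higher. Fatty acid oxidation had 14 of 24 tested members higher and 1 lower (median 0.38). They included Hadh (10.8 to 27.75 TPM), a dehydrogenase whose loss is known to raise insulin secretion, the carnitine transferase Cpt1a (7.79 to 15.1 TPM) and the dehydrogenase Acadvl (8.47 to 16.4 TPM).

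Nuclear subunits of the respiratory chain rose in part. For complex I, 22 of 37 tested members were called higher and 5 lower (median 0.27), but with quantile normalization the counts were 10 and 8. Ndufa4, now placed in complex IV by many accounts, was at 44.9, 46 and 61.04 TPM in control and 133, 130 and 142 TPM with overexpression, and Ndufa9 rose from 15.4 to 36.55 TPM. Ndufv3, the most abundant member, fell from 198 to 106 TPM. For complexes III and IV, 12 of 21 were higher and 2 lower (median 0.31), led by cytochrome c1, Cyc1 (20.4 to 37.7 TPM). With quantile normalization these counts were 10 and 4 (median 0.10). Of 16 ATP synthase genes, 12 were higher and 1 lower (median 0.40). Atp5g1, a gene for the membrane ring subunit, was at 55.8, 66.4 and 81.9 TPM in control and 188, 193 and 192 TPM with overexpression (log2 fold change 1.495 ± 0.13 SE, limma adjusted p = 1.02e-04), with all 3 overexpression libraries above all controls. The single member called lower was Atpif1, the inhibitor of the enzyme, at 281, 292 and 255 TPM in control and 160.1, 154 and 152 TPM with overexpression. With quantile normalization, 8 ATP synthase genes were called higher and 3 lower.

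Genes of the mitochondrial genome did not follow their nuclear partners. Of 13, 8 were called lower and 2 higher, with a median of -0.77. The complex I gene mt-Nd2 was at 1452, 1391 and 1048 TPM in control and 481, 413 and 407 TPM with overexpression (log2 fold change -1.57 ± 0.14 SE, limma adjusted p = 1.16e-04), and mt-Co1, the catalytic subunit of complex IV, was at 6695, 6888 and 6014 TPM in control and 3145, 3154 and 3100 TPM with overexpression. The groups of both genes lay apart. The 2 called higher were mt-Co3 (725 to 1077 TPM) and mt-Nd3 (242.5 to 384 TPM). Without overexpression replicate 3 neither was called (limma adjusted p = 0.0544 and 0.0513). mt-Co3 was also not called with median-ratio scaling (limma adjusted p = 0.0667), or without control replicate 1 or overexpression replicate 1 or 2 (0.0587 to 0.0665). Mitochondrial ribosomal RNA moved with the lower genes, from 8.96% to 9.76% of a library's TPM in control to 6.13% to 6.53% with overexpression, and its part in these values was not tested. Genes of the mitochondrial ribosome, encoded in the nucleus, were higher for 48 of 77 and lower for 5 (median 0.30), against 29 and 17 with quantile normalization.

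**Figure D3:**
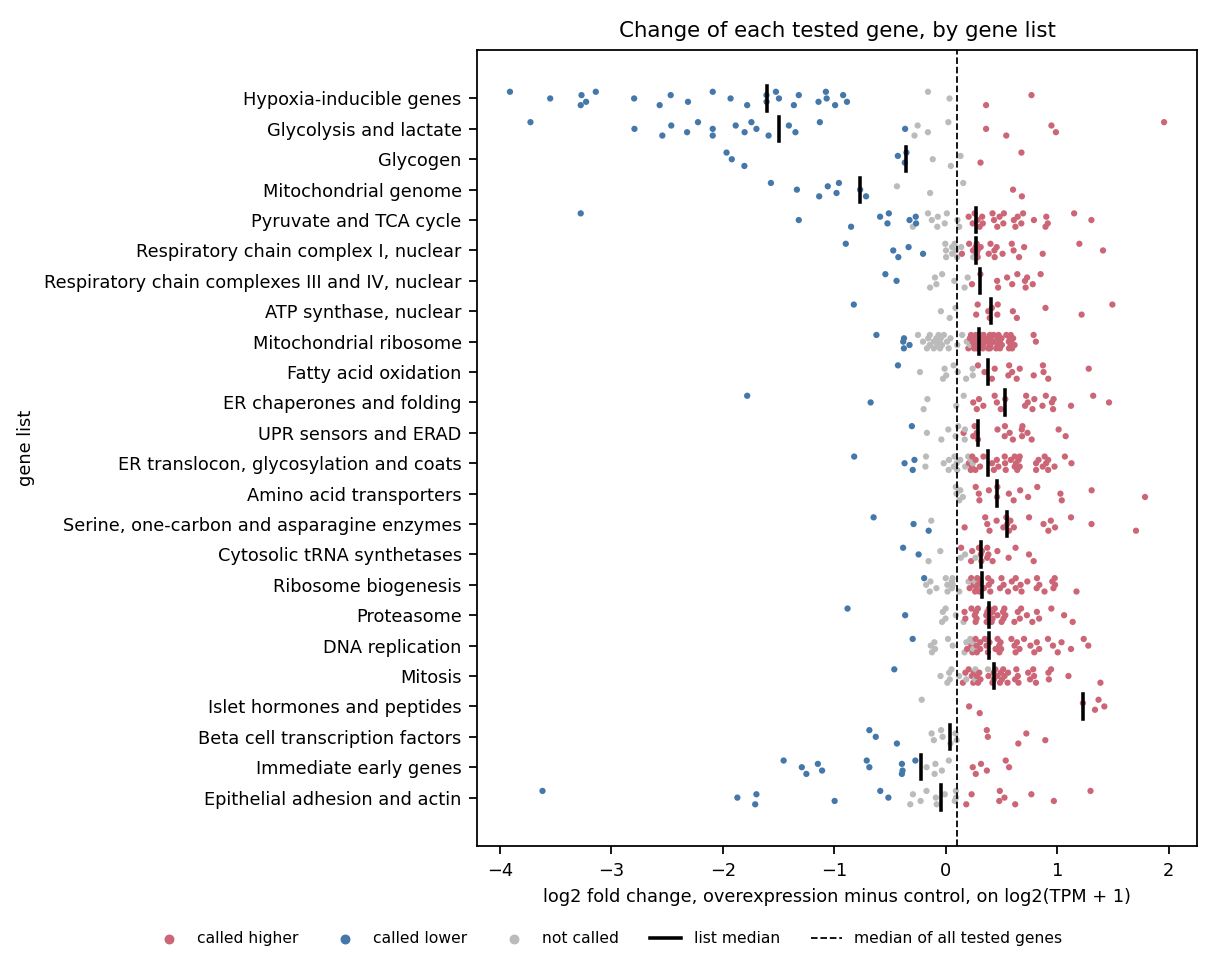
Each point is a tested gene and each row a gene list, with the log2 fold change (overexpression minus control, on log2(TPM + 1)) on the x axis, red for called higher, blue for called lower and grey for not called; the black bar is the list median and the dashed line the median of all tested genes. The hypoxia and glycolysis lists have medians of -1.61 and -1.498, while the folding, replication and mitosis lists have medians of 0.53, 0.39 and 0.43.

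The machinery for making and folding secreted proteins was higher. Of 27 ER chaperone and folding genes, 21 were called higher and 2 lower, against 38.1% higher among all tested genes, with a median change of 0.53. Hspa5, or BiP, the main chaperone of the ER lumen, was at 111, 110.1 and 108 TPM in control and 331, 302 and 283 TPM with overexpression (log2 fold change 1.47 ± 0.07 SE, limma adjusted p = 1.40e-05). Creld2 was at 7.54, 8.26 and 8.53 TPM in control and 24.5, 20.2 and 20.9 TPM with overexpression, and Dnajc3, a cochaperone of BiP, rose from 7.56 to 17.7 TPM. The ER form of HSP90, Hsp90b1, rose from 115.5 to 227 TPM. The 2 members called lower were Ero1l, an oxidase that is also a HIF target, and Sil1, the nucleotide exchange factor of BiP. Ero1l was at 94, 88.5 and 82.9 TPM in control and 27.6, 24.95 and 22.7 TPM with overexpression. Sil1 fell from 11.1 to 6.57 TPM. The beta cell paralogue Ero1lb, the most abundant member, was not called (log2 fold change -0.16), but it was called lower with median-ratio scaling (-0.29).

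Among sensors and effectors of the unfolded protein response and of ER-associated degradation, 17 of 25 were called higher and 1 lower (median 0.29). Xbp1, the transcription factor activated by splicing, was at 20.2, 20.8 and 21.6 TPM in control and 45.8, 41.3 and 42.35 TPM with overexpression (log2 fold change 1.01 ± 0.06 SE, limma adjusted p = 2.75e-05). The sensors Ern1, Atf6 and Eif2ak3 were not called, with log2 fold changes of -0.17, 0.17 and -0.04. Ern1 was called lower with median-ratio scaling and without control replicate 3 (limma adjusted p = 0.0156 and 0.0181), and Atf6 was called higher without control replicate 2 (0.0471). Selenos rose from 10.8 to 23.8 TPM and the extraction ATPase Vcp from 27.7 to 48.1 TPM. The mannosidase-like Edem1 was the member called lower (15.6 to 12.5 TPM), but not without control replicate 2 or 3 or overexpression replicate 2 or 3 (limma adjusted p = 0.0658 to 0.108). For the translocon, glycosylation enzymes and vesicle coats, 34 of 52 were higher and 4 lower (median 0.38). Sec61a1, the channel itself, was at 25.6, 27 and 27.9 TPM in control and 62.1, 58.45 and 59.04 TPM with overexpression, and the coat gene Sec23b rose from 19.35 to 41.7 TPM. Kdelr3, a retrieval receptor, went the other way, from 1.497 to 0.403 TPM.

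Against 38.1% higher and 20.5% lower of all tested genes, the integrated stress response had 11 of 23 higher and 6 lower (median 0.16). With median-ratio scaling, its counts were 8 and 7. Atf4, its main transcription factor, was at 113, 114 and 121 TPM in control and 174, 177 and 173 TPM with overexpression (log2 fold change 0.59 ± 0.05 SE, limma adjusted p = 1.20e-04). Ddit3, or CHOP, was at 31.15, 30.3 and 28.1 TPM in control and 28.8, 29.7 and 29.8 TPM with overexpression, with overlapping groups, and Trib3, another ATF4 target, also overlapped (log2 fold change -0.00). Both were called lower with quantile normalization (limma adjusted p = 0.0186 and 0.0411). Atf3 was called lower (10.55 to 7.77 TPM), but not without overexpression replicate 1 (limma adjusted p = 0.0638). Genes for amino acid supply rose. Of 20 amino acid transporters 15 were called higher and none lower (median 0.46; limma also gave none lower at an unadjusted p under 0.05). Slc38a5 was at 17.2, 16.7 and 19.9 TPM in control and 37.1, 38.5 and 36.97 TPM with overexpression, and Slc3a2, the heavy chain shared by several transporters, rose from 82.3 to 131 TPM. Of 23 serine, one-carbon and asparagine genes, 19 were higher and 3 lower (median 0.55). Psph, the last step of serine synthesis, was at 25.9, 27.3 and 31.5 TPM in control and 58.85, 65.4 and 63.4 TPM with overexpression, and Cth, which makes cysteine, rose from 3.22 to 9.47 TPM. Slc7a5 and Gcsh, the largest changes of these 2 lists above 5 TPM, lie at the end of chromosome 8 described below.

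Genes for ribosome assembly, tRNA charging and the proteasome were mostly higher. Of 48 ribosome biogenesis genes, 33 were called higher and 1 lower (median 0.33), with the processing factor Rrp12 from 3.34 to 8.78 TPM and Bop1 from 6.003 to 12.8 TPM. Of 23 cytosolic tRNA synthetase genes, 16 were higher and 2 lower (median 0.31), against 10 and 4 with quantile normalization. Gars, for glycine, rose from 56.85 to 98.95 TPM. Large ribosomal subunit genes split into 14 higher and 15 lower of 46, with median-ratio scaling into 8 and 19, and without control replicate 3 into 22 and 16. Rpl22 fell from 297 to 139 TPM while Rpl10a rose from 134 to 202 TPM. Proteasome genes were higher for 35 of 43 and lower for 2 (median 0.39). Psmb4 was at 32.96, 34.45 and 49.9 TPM in control and 85.9, 86.6 and 84.95 TPM with overexpression. The 2 that fell, Psmb8 and Psmb9, encode catalytic subunits of the immunoproteasome, and went from 7.61 to 5.7 TPM and from 2.36 to 0.817 TPM. The third catalytic subunit of that form, Psmb10, rose from 3.29 to 7.98 TPM.

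Cell cycle genes rose. Of 47 DNA replication genes, 35 were called higher and 1 lower (median 0.39), and of 48 mitosis genes 37 were higher and 1 lower (median 0.43). Tyms, thymidylate synthase, was at 25.1, 26.99 and 26.2 TPM in control and 62.4, 61.35 and 64.9 TPM with overexpression (log2 fold change 1.24 ± 0.05 SE, limma adjusted p = 9.67e-06). Rrm2, the regulated subunit of ribonucleotide reductase, rose from 13.4 to 30.4 TPM, and the helicase subunit Mcm5 from 31.3 to 65.4 TPM. Cdc20, an activator of the anaphase-promoting complex, was at 14.9, 15.04 and 16.5 TPM in control and 43.1, 40.04 and 43.2 TPM with overexpression (log2 fold change 1.39 ± 0.06 SE, limma adjusted p = 1.17e-05). Cyclin B1, Ccnb1, rose from 29.65 to 64.7 TPM and the kinase Plk1 from 6.27 to 12.99 TPM. The members called lower were the kinetochore gene Spc24 (21.95 to 15.7 TPM) and the ligase Lig1 (32.6 to 26.2 TPM). Lig1 was not called without control replicate 1 or 2 or any 1 overexpression replicate (limma adjusted p = 0.0623 to 0.101). For Tyms and Cdc20, the genes given by library, the overexpression values lay above every control value. Groups did not overlap for 65.5% of all tested genes.

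Upstream of these, cyclin D2, Ccnd2, was at 19.5, 19.2 and 17.7 TPM in control and 52.75, 49.9 and 56.15 TPM with overexpression (log2 fold change 1.45 ± 0.06 SE, limma adjusted p = 1.22e-05), whereas Ccnd3 fell from 7.04 to 4.26 TPM. The cyclin-dependent kinase inhibitor Cdkn1a was at 21.4, 23.1 and 21.01 TPM in control and 17.1, 13.6 and 13.6 TPM with overexpression, and Cdkn2c, another inhibitor, rose from 43.95 to 61.2 TPM. Cdk4 was not called (72.2 to 75.8 TPM by group means). The p53 gene Trp53 rose from 8.72 to 16.8 TPM. Of 27 members of its target list, 11 were higher and 10 lower, against 38.1% and 20.5% of all tested genes. Replication-dependent histone genes were higher for 23 of 34 and lower for 2 (median 0.49). Hist1h1a rose from 109 to 262 TPM. The third overexpression library held the highest value of 19 of those 23. Reads of near-identical histone copies were shared out by the authors' estimation, so single histone genes are uncertain.

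Of 7 tested hormone and peptide genes, 6 were called higher and none lower (median 1.23; at an unadjusted limma p under 0.05, 1 was lower). With median-ratio scaling 4 were higher and 1 lower, and leaving out 1 library at a time gave 4 or 5 higher. Ins1, an insulin gene, was at 739, 786 and 829 TPM in control and 1952, 2074 and 2064 TPM with overexpression (log2 fold change 1.37 ± 0.08 SE, limma adjusted p = 2.37e-05). Its groups lay well apart. Gcg, the glucagon gene, was at 314, 332 and 322 TPM in control and 744, 726.5 and 808 TPM with overexpression, and the gut and brain peptide Cck rose from 66 to 179 TPM. Secretin, Sct, rose from 2.05 to 6.697 TPM. Iapp, amylin, was called higher (2625 to 3248 TPM), but not with median-ratio or quantile scaling (limma adjusted p = 0.102 and 0.542), and not without control replicate 1 or 2 or overexpression replicate 1 or 2 (0.0583 to 0.0677). Pomc, at 1.22 to 1.56 TPM, was called higher, but in none of the fits that left out 1 library (limma adjusted p = 0.0571 to 0.128). Npy, at 2373 to 2043 TPM, was not called (limma adjusted p = 0.0505), though its groups did not overlap. It was called lower with median-ratio and quantile scaling (limma adjusted p = 0.00808 and 0.0153) and without control replicate 3 (0.0119). Gcg and Ttr, which rose, are among 10 markers used for alpha and other endocrine cells. The other members were Irx2, called lower (3.5 to 2.44 TPM) but in only 1 of the 6 fits that left out a library (limma adjusted p = 0.0537 to 0.119 in the other 5), and 7 genes under 1 TPM in every library, among them Irx1 and Sst. The summed level of the 10 was 328 to 346 TPM in control and 779 to 865 TPM with overexpression, most of it Gcg.

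Of 15 tested beta cell transcription factors, 5 were called higher and 3 lower, shares close to the 38.1% and 20.5% of all tested genes, and with median-ratio scaling 5 and 5. Pdx1, the central activator of insulin genes, was at 44.1, 43.55 and 39.4 TPM in control and 75.2, 68.2 and 68.2 TPM with overexpression (log2 fold change 0.72 ± 0.07 SE, limma adjusted p = 1.47e-04). Myt1 rose from 9.14 to 17.8 TPM, and Nkx6-1 and Nkx2-2 from 4.73 to 6.38 TPM and 4.96 to 6.75 TPM. Mafa, which also activates insulin transcription, fell and was at 65.1, 66.6 and 57 TPM in control and 38.95, 38.6 and 38.5 TPM with overexpression; Pax6 fell from 71.15 to 45.4 TPM and Foxa2 from 17.5 to 12.65 TPM. Neurod1 and Isl1 were not called, but Neurod1 was called lower with median-ratio and quantile scaling (limma adjusted p = 0.0318 and 0.021). Of the channels and receptors, Kcnk16, a potassium channel of beta cells, was at 1.47, 1.51 and 1.52 TPM in control and 12.7, 12.3 and 11.1 TPM with overexpression (log2 fold change 2.38 ± 0.07 SE, limma adjusted p = 4.45e-06). Kcnj11, the pore of the ATP-sensitive potassium channel, rose from 6.34 to 12.75 TPM, while its partner Abcc8 was not called. The receptor genes for the 2 incretins moved apart, with Glp1r at 2.5, 2.76 and 2.69 TPM in control and 7.99, 6.75 and 6.81 TPM with overexpression and Gipr at 5.42, 4.76 and 5.29 TPM in control and 1.59, 1.93 and 2.1 TPM with overexpression. Chga, chromogranin A, fell from 1114 to 861 TPM, and the processing enzyme Pcsk1 rose from 60.98 to 88.7 TPM.

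Several secreted products were among the largest rises. Il4, a cytokine of T helper cells, was at 0.48, 0.38 and 0.93 TPM in control and 15.6, 16.15 and 13.2 TPM with overexpression (log2 fold change 3.33 ± 0.14 SE, limma adjusted p = 9.21e-06). The control values lay under 1 TPM and the overexpression values above 13 TPM. Of its neighbours in the same cytokine locus, Il13 was listed at 0 in all 6 libraries, Il5 was at most 0.03 TPM, Rad50 was called lower without control replicate 3 only, of the settings run, and Irf1 fell from 9.41 to 5.53 TPM. Sept8, a septin gene of the same locus, was called higher (4.16 to 5.59 TPM), but not without overexpression replicate 1 or 2 (limma adjusted p = 0.0657 and 0.0511). Of the 6 members of the locus tested, 2 were thus higher and 1 lower. The leukocyte markers Ptprc, Cd3e and Gata3 stayed under 1 TPM. Ttr, transthyretin, was at 9.01, 9.41 and 11.1 TPM in control and 52.3, 49.4 and 54.2 TPM with overexpression, and Plat, tissue plasminogen activator, at 3.64, 4.15 and 3.63 TPM in control and 20.9, 21.5 and 19.6 TPM with overexpression. The acute phase gene Saa3 rose from 20.4 to 71.7 TPM and osteopontin, Spp1, also on the duct marker list, from 21.7 to 71.35 TPM. Vegfa, the hypoxia-inducible angiogenic factor, fell from 84.8 to 33.3 TPM, and Adm, adrenomedullin, from 5.22 to 0.253 TPM.

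A few adhesion genes of epithelial cells fell deeply, but members of the list were called in both directions. Espn, which bundles actin, was at 23.2, 20.8 and 18.3 TPM in control and 0.74, 0.71 and 0.86 TPM with overexpression (log2 fold change -3.62 ± 0.09 SE, limma adjusted p = 4.45e-06), the third-deepest fall among ranked genes. E-cadherin, Cdh1, was at 9.54, 9.38 and 8.75 TPM in control and 2.58, 1.89 and 1.95 TPM with overexpression. Epcam fell from 20.9 to 5.75 TPM and the desmosome gene Dsp from 9.13 to 1.78 TPM. Over the list, 9 of 26 members were higher and 7 lower, against 8 and 13 without control replicate 3, 7 and 12 with quantile normalization and 7 and 11 with median-ratio scaling. The shares of all tested genes were 38.1% and 20.5%. The actin gene Actb rose from 445 to 686.5 TPM. Flna, also among the 5 largest changes of called members averaging 5 TPM or more, was called higher. The largest rise on the list was 1.30 on the log2 scale. Immediate early genes, the class to which Nr4a1 belongs, were lower for 11 of 22 and higher for 6 (median -0.22). Jun was at 9.56, 9.07 and 7.83 TPM in control and 3.74, 3.43 and 3.46 TPM with overexpression, and Ier3 and the phosphatase Dusp1 fell from 11.03 to 3.39 TPM and 12.15 to 4.38 TPM. In the fatty acid synthesis list, Scd2, a desaturase, was at 249.6, 257 and 243 TPM in control and 73.5, 74.2 and 77.2 TPM with overexpression, while Acly, which supplies acetyl-CoA, rose from 140.5 to 196 TPM. Of 16 circadian clock genes, 6 were lower and none higher (limma, with 7 and none at an unadjusted p under 0.05, and 10 and none with median-ratio scaling), among them Bhlhe40 (12.1 to 3.66 TPM), a HIF target listed with the hypoxia genes too, and Dbp (12.4 to 7.59 TPM). Of 10 metallothionein and zinc genes, 6 were higher and 2 lower (median 0.39; 6 and 4 with median-ratio scaling). The metallothioneins Mt1 and Mt2 were the 2 lower ones and fell from 561 to 288 TPM and 405 to 263 TPM, while Mt3 rose from 40.1 to 68.2 TPM and the zinc transporter of insulin granules, Slc30a8, from 35.6 to 51.4 TPM. The transferrin receptor Tfrc rose from 14.1 to 33.2 TPM.

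Changes were also uneven along the genome, a pattern noticed in the data and given as a description. Gene order was taken from an annotation of GRCm38. On chromosome 8, from Cmc2 to the chromosome's end, 79 of 93 tested protein-coding genes were called higher and 3 lower, against 39.4% and 19.9% of all tested protein-coding genes. Their median change was 0.67, a factor of 1.59. The medians by library, relative to the control mean, were 0.00, 0.02 and -0.01 in control and 0.72, 0.69 and 0.69 with overexpression. All 3 overexpression libraries were thus raised by a like amount. Before Cmc2, 472 genes of the same chromosome had a median of 0.12, close to the 0.12 over all chromosomes other than 8 and 13. The step was sharp: the last tested gene before it, Wwox, had a log2 fold change of -0.34, and Cmc2, Cenpn and Atmin, the first after it, had 1.00, 1.36 and 1.24. Cmc2 was at 14.6, 14.8 and 17.8 TPM in control and 32.4, 33.25 and 31.2 TPM with overexpression. The start at Cmc2 was set after these values were seen, so the count and the step at that border depend in part on that choice. The functions of these genes were not examined.

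Of 256 windows of 40 consecutive genes, 2 had a median of at least 0.5, both at this end (0.75 and 0.54), and the middle 90% of windows lay between -0.08 and 0.29. Chromosome 13 went the other way over most of its length. Without its histone genes, 60 of its 390 tested genes were higher and 167 lower, with a median of -0.15, and of the 10 windows with a median of at most -0.1, 7 lay on it. The 51 histone genes of that chromosome had a median of 0.47. What lies behind either step was not tested.

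**Figure D4:**
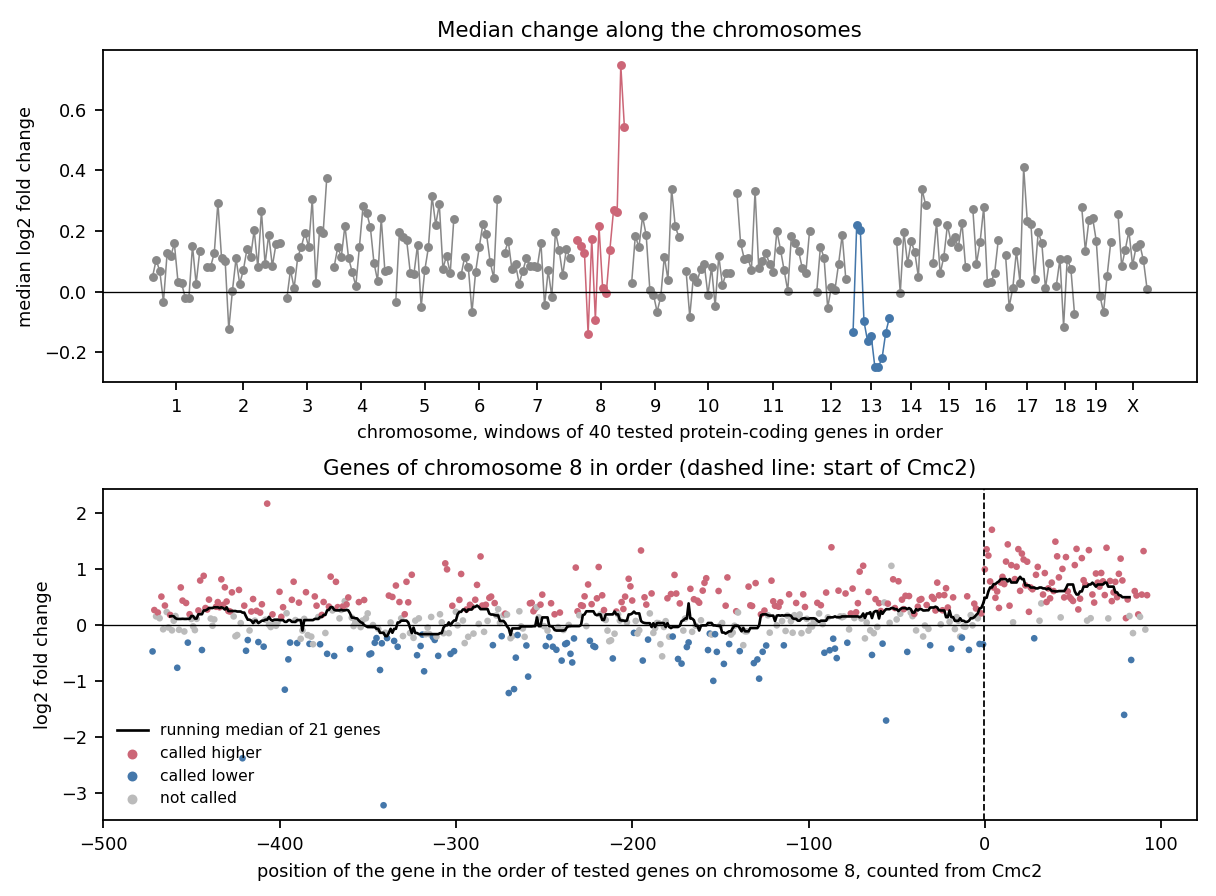
The upper panel plots the median log2 fold change of consecutive windows of 40 tested protein-coding genes along chromosomes 1 to 19 and X, with chromosome 8 in red and 13 in blue; the lower panel plots each gene of chromosome 8 in order, counted from Cmc2, with a running median of 21 genes. The last 2 windows of chromosome 8 reach 0.75 and 0.54, and most windows of chromosome 13 lie below 0 apart from the 2 that hold histone genes.

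Some members of the lists lie at this end of chromosome 8. Gcsh, a subunit of the glycine cleavage system, was at 11.05, 14.2 and 15.9 TPM in control and 48.7, 43.9 and 47.2 TPM with overexpression, the largest rise of its region, and Slc7a5, a transporter of large amino acids, rose from 37.7 to 78.55 TPM. The replication genes Gins2 and Cdt1 rose from 11.3 to 28.6 TPM and 8.57 to 15.2 TPM, Cox4i1 of complex IV from 201 to 329.8 TPM, the sterol gene Mvd from 3.603 to 7.78 TPM, and Mbtps1, the protease that cleaves ATF6, from 25.7 to 43.35 TPM. Egln1 lies there too and fell, so that it went against its neighbours. Without that end of chromosome 8 and without chromosome 13, 24 of 28 hypoxia genes and 16 of 25 glycolysis genes were lower, and 36 of 45 mitosis genes and 32 of 43 replication genes were higher. Histone genes lie mostly on chromosome 13, and 6 of them remained, 3 of which were higher. Of the 237 protein-coding genes called at least 2-fold higher, 23 (9.7%) lay at that end of chromosome 8, which holds 0.875% of the tested protein-coding genes.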

How the data were processed

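Total RNA of MIN6 cells was sequenced from stranded total RNA libraries, per the labels' protocols. Sample titles gave each library's group and its replicate number. The authors deposited TPM (a length-scaled share of each library's transcripts) per Ensembl transcript, made with STAR 2.7.1a and RSEM 1.2.31 on GRCm39 per the submitters' processing notes; which annotation release, strand setting and filters were used is not given in the sources used here. Transcript values were summed per gene with GENCODE M21, an annotation of GRCm38 used for names, gene class and gene order only, which matched 97.13% of 142435 identifiers. Depth cannot be recovered from TPM, so no counting intervals are given.

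Genes reaching 1 TPM in 3 or more of the 6 libraries were fitted with limma 3.58.1 in R 4.3.3 (lmFit, eBayes with a mean-variance trend, two-sided, Benjamini-Hochberg at 0.05) on log2(TPM + 1). In simulated data with 200 changed genes of 11672, 62.8% of changes of 0.5 and 93.6% of changes of 1 on the log2 scale were recovered, and 4.05% of calls were false. Noise there was drawn independently for each gene and library, and far fewer genes changed than the 58.6% called in the data. These rates therefore do not describe the calls reported here. Errors of log2 fold changes are SE, and TPM is given per library or as a group mean over 3 libraries. Genes named are the NR4A receptors, the 20 highest and 20 lowest called protein-coding genes averaging 5 TPM or more, with groups that do not overlap and no predicted or clone name, and for each list the up to 5 largest called members, the most abundant one and those called against the majority, with any member of lists of regulators and markers. Further members, and genes picked by place, were named after their values were seen. The members, lists and tests were chosen with earlier results of these data known. Alternatives covered the pseudocount, filter, scaling, samples in the fit, variance trend, replicate block, a chemoreceptor background and leaving out each library; leaving out the end of chromosome 8 and chromosome 13 was added after the data were seen. Promoters were matched by RefSeq gene ID or symbol. Other steps used Python 3.11.15, pandas 2.3.3, scipy 1.17.1 and matplotlib 3.10.9. Certain items are not reported here.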

Additional observations from a re-analysis of the deposited data

Results flagged for a closer look

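Transcript identifiers that matched no gene of the annotation were outside the comparison of genes. Of 195 such identifiers that passed the same filter, limma called 47 higher and 32 lower with overexpression. They held 19.8% to 20.6% of a library's TPM in control and 18.0% to 18.7% with overexpression, and they are not named here.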

How the results depend on the processing

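Under each alternative Nr4a1 remained called higher (log2 fold change 6.20 to 7.39). Of 355 genes followed, 316 kept their direction and their side of the threshold in every setting. The number of called genes, 6841 as reported, ranged from 4782 with a 5 TPM minimum to 8789 with no filter. Genes called lower went from 2390 to 4707 with no filter, where more low genes are tested, and to 1456 with a 5 TPM minimum, where fewer are. With no filter the median change of all tested genes turned from 0.10 to -0.047. With a pseudocount of 0.1, which shrinks low genes less, 535 genes were at least 2-fold higher and 471 at least 2-fold lower, in place of 323 and 239. Quantile normalization gave 3432 genes higher and 3252 lower, and rescaling to nuclear protein-coding genes 3390 and 3304. Leaving out 1 library at a time gave 5708 to 7194 called genes, 3735 to 4468 higher and 1887 to 2726 lower. The fit with the replicate number as a block called 6510 genes, 4247 higher and 2263 lower, but same-numbered libraries did not deviate together (correlations -0.017, 0.027 and -0.043) and nothing in the labels pairs them. Of 55 list medians, 11 turned sign under a scaling and 15 under any setting, all of them between -0.14 and 0.11 as reported. For small subunit ribosomal genes the counts went from 15 higher and 6 lower to 4 and 8 with median-ratio scaling.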
